A study of Rattus norvegicus with 15 samples.

Results

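The heat shock chaperones are proteins that bind unfolded or newly made proteins and help them fold, and many of them are made in larger amounts when a cell is stressed. The set described here was 10 named genes: the cytosolic HSP70 genes Hspa1a, Hspa1b and Hspa8, the endoplasmic reticulum HSP70 gene Hspa5, Hsp90aa1, Hsph1, Dnajb1, Hspb1, Hspd1 and Hspe1. Members were all probe sets (groups of array probes summarised to 1 value) whose only gene symbol in the platform annotation was 1 of these names. The rule gave 9 probe sets of 7 genes, out of 14217 genes that have a probe set of 1 symbol in the series. The other 3 genes, Hspa1b, Hspa8 and Hsp90aa1, are on the array only through 4 probe sets that the annotation also assigns to a second symbol, and those are given separately under their probe set identifiers.

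The samples were rat spermatogonial stem cells, the stem cells of the male germ line, expanded over 1 month of culture without serum, in medium that held GDNF (glial cell line-derived neurotrophic factor). GDNF signals through the receptor RET and its co-receptor GFRA1 and is the main growth factor for self-renewal of these cells. The study profiled 5 states with 3 independent cultures each, 15 arrays in all: 18 h of GDNF withdrawal, 18 h of withdrawal followed by 2 h, 4 h or 8 h of renewed GDNF, and control cultures that kept GDNF. The samples used here hold no culture left without GDNF beyond 18 h and no control harvested with each later time, so renewed GDNF and elapsed time cannot be told apart.

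The heat shock response works through HSF1, a transcription factor held inactive by chaperones in unstressed cells. When unfolded proteins occupy those chaperones, HSF1 forms trimers and binds heat shock elements, which are inverted repeats of the letters GAA. HSP70 proteins (Hspa1a, Hspa1b and Hspa8) grip exposed stretches of a client protein, J-domain proteins such as Dnajb1 deliver clients to them, and HSP110 proteins such as Hsph1 release the nucleotide that ends the cycle. The mitochondrial matrix has its own folding chamber, made of Hspd1 (HSP60) and its lid Hspe1 (HSP10). In the endoplasmic reticulum, Hspa5 (BiP) is the HSP70 and is a target of the unfolded protein response rather than of HSF1.

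The promoters of 5 member genes are shown as a description of the elements their windows hold. Whether these elements bear on how each member moved was not tested. Each sequence is RefSeq's, from the rat build GRCr8, and runs from 250 bases before to 50 bases after the annotated start of the gene, 5′ to 3′ on the gene's strand. Capitals mark the units of a heat shock element in Hsph1, Hspb1 and Hspd1, and the fixed letters of an endoplasmic reticulum stress response element in Hspa5. Hspa1a has no capitals because neither element was found in its window, at chr20:3859506-3859805 on the plus strand. The Hsph1 window lies at chr12:10427118-10427417 on the plus strand, the Hspb1 window at chr12:26432252-26432551 on the minus strand, the Hspd1 window at chr9:64083988-64084287 on the minus strand, and the Hspa5 window at chr3:38452766-38453065 on the plus strand.
Hspa1a: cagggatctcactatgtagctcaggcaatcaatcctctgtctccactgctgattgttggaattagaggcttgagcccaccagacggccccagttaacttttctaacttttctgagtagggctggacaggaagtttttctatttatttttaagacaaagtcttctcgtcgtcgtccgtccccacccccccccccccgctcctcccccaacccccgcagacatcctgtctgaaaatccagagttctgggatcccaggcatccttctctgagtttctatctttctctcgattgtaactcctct
Hsph1: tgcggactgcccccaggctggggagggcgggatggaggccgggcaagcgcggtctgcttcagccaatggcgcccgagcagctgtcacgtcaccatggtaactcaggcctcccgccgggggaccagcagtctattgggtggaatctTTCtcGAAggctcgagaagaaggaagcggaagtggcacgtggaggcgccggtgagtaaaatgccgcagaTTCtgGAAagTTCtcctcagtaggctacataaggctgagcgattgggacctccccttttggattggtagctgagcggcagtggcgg
Hspb1: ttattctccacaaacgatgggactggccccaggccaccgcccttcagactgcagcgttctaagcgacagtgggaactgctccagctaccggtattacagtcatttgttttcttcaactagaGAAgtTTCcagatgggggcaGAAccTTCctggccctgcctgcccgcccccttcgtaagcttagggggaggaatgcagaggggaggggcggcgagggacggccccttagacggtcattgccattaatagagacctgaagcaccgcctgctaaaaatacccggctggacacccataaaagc
Hspd1: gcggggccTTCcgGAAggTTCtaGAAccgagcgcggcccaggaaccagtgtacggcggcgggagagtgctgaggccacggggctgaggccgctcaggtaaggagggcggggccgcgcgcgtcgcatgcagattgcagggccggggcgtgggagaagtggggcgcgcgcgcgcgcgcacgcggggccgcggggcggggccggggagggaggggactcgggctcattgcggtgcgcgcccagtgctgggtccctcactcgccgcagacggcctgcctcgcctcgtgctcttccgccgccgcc
Hspa5: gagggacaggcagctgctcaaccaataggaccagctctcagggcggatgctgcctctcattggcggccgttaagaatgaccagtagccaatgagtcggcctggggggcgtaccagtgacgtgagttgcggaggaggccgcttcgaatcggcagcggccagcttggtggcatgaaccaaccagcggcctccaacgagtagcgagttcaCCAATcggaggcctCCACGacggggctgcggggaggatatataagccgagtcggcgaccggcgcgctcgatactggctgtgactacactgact

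All 7 member genes had a window, and the search covered both strands of 33469 promoters of the same length. A heat shock element of 3 units, spelled GAANNTTCNNGAA or TTCNNGAANNTTC, was present in 267 of them (0.798%). Hsph1 was among these, with TTCTGGAAAGTTC from 36 to 24 bases before its start. A run of 4 units, which contains the 3-unit form, was present in 16 promoters (0.0478%), and Hspd1 was among these with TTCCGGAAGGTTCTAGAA from 242 to 225 bases before its start. Hspe1 lies head to head with Hspd1 on chromosome 9, the 2 windows share 211 bases, and the same element read on the other strand lay 65 to 48 bases before the Hspe1 start. The 2-unit form, GAANNTTC or TTCNNGAA, was common, in 15.9% of promoters, and overlaps the longer forms. Hspb1 had 2 separate copies of it, 129 to 122 and 109 to 102 bases before the start, and Dnajb1 had 1 from 11 to 4 bases before its start and 1 within the first 50 bases after it. The endoplasmic reticulum stress response element, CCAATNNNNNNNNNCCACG, was in 22 promoters (0.0657%), among them Hspa5, 43 to 25 bases before its start. These matches describe letters in the windows only, and the absence of a match in Hspa1a says only that the letters are not in that window.

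All 9 member probe sets passed the filter for low values, an intensity of at least 16 on at least 3 of the 15 arrays, as did 15856 probe sets in all (51.1%). A probe set was called when its adjusted p from limma was under 0.05. Any 1 comparison called a large share of the array, so each count of members is given beside the share of all tested probe sets called in the same comparison. Where groups are said not to overlap, this describes the values only. The share of all probe sets without overlap was not counted, and some members that were not called did not overlap either. Intensities of different probe sets depend on their probes and are not compared with each other. RNA came from whole cultures, in which fewer cells of a type and less RNA per cell cannot be told apart.

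After 18 h without GDNF, Hspa1a, the stress-inducible cytosolic HSP70, was the probe set with the largest rise of all 15856 tested. Its intensity was 283, 226 and 226 in the withdrawal cultures, against 45.0, 32.9 and 47.9 in the control cultures. The lowest withdrawal culture was thus several times above the highest control culture. The means were 244.7 ± 33.0 in withdrawal and 41.9 ± 7.94 in control (SD, n = 3 each), a log2 change of 2.56 ± 0.17 (SE) or 5.88-fold (adjusted p = 7.81e-08).

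Hspa1a was lower at every time after GDNF returned. Its intensity was 87.6, 85.5 and 72.6 at 2 h, 71.7, 68.1 and 68.8 at 4 h, and 70.1, 44.2 and 44.9 at 8 h. At 2 h it was already 2.98-fold lower than in withdrawal (log2 change −1.58 ± 0.17, adjusted p = 1.84e-05). At 4 h it was 3.50-fold lower (adjusted p = 1.88e-06) and at 8 h 4.70-fold lower (adjusted p = 3.44e-07), the largest fall of all tested probe sets in that last comparison. Ordered by their means, the states ran from withdrawal through 2 h, 4 h and 8 h to control. The 2 h and 4 h cultures were close, with the lowest 2 h culture at 72.6 and the highest 4 h culture at 71.7, while the 8 h cultures overlapped both the 4 h and the control cultures.

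Against control, the return was partial at the first times. At 2 h Hspa1a was still 1.97-fold above control (log2 change 0.98, adjusted p = 0.000853) and at 4 h 1.68-fold above (log2 change 0.75, adjusted p = 0.00621). At 8 h the log2 difference from control was 0.32, with a 95% interval from −0.04 to 0.69, and did not pass the test (adjusted p = 0.252). The 8 h cultures were the most uneven for this gene, with 1 culture at 70.1 and the others at 44.2 and 44.9, and their coefficient of variation was 27.8%, against 19.0% in control.

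**Figure D1:**
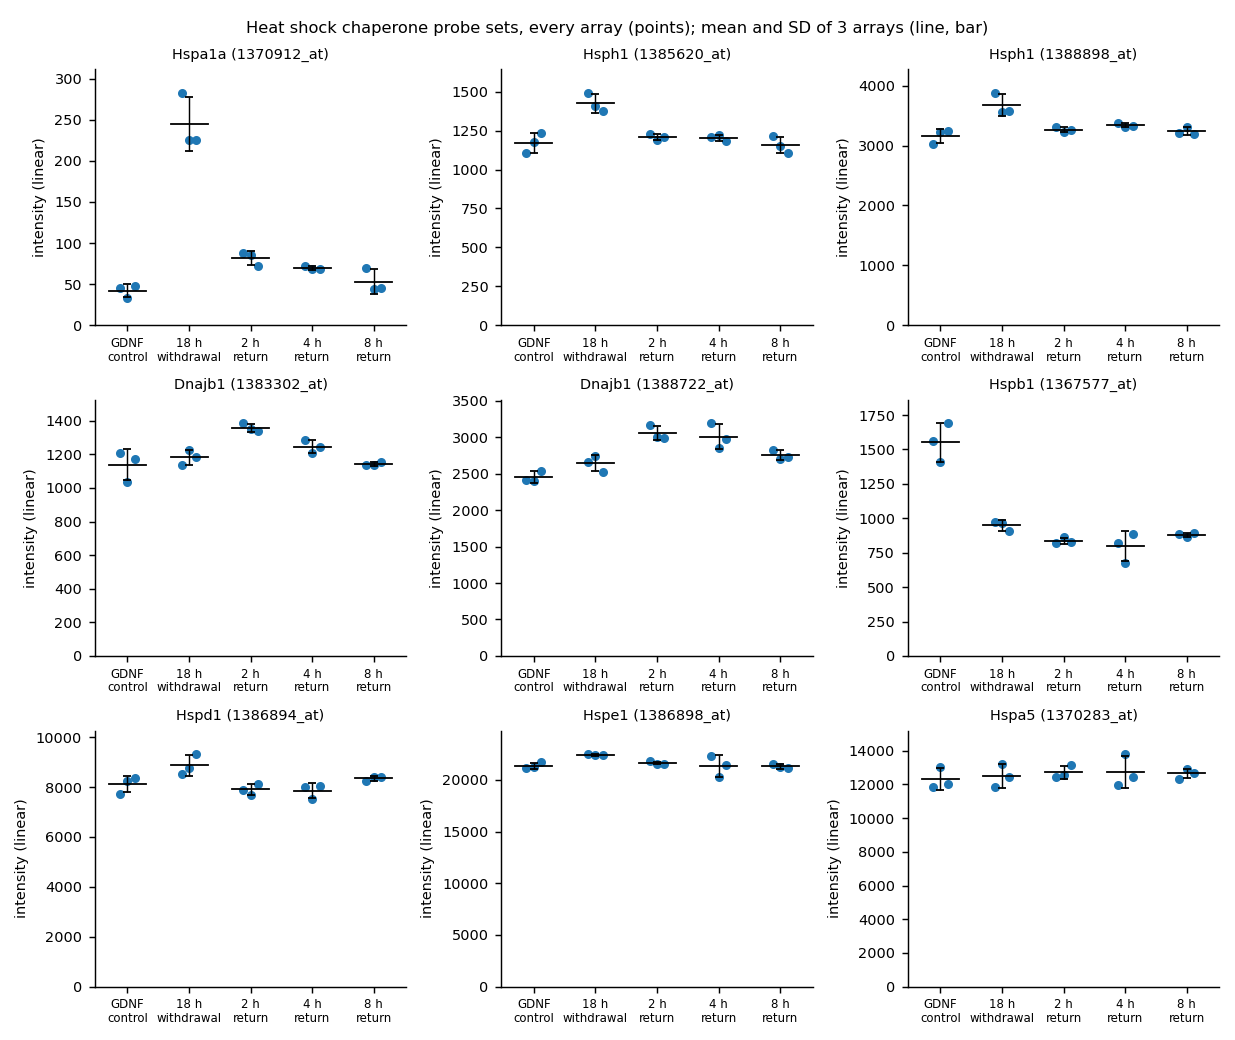
Intensity (linear scale, y axis from 0) of each of the 9 chaperone probe sets on every array, by state, with the mean and SD of 3 arrays. Hspa1a stands at 226 to 283 in withdrawal and at or under 87.6 on all other arrays, Hspb1 stays at or under 972 in all states but control, and Hspa5 lies between 11839 and 13819 throughout.

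The paralogue Hspa1b encodes a nearly identical protein, and the array holds it only in probe set 1368247_at, which the annotation assigns to both Hspa1b and Hspa1a. The signals of the 2 genes at these probes cannot be separated. That probe set gave 720, 679 and 701 in withdrawal cultures and 321, 293 and 321 in control cultures, which do not overlap. Its log2 change of 1.17 ± 0.07 (2.25-fold, adjusted p = 2.8e-08) had the direction of the Hspa1a probe set and a smaller size. With GDNF back, it fell by 0.93, 1.08 and 0.91 on the log2 scale at 2 h, 4 h and 8 h (adjusted p = 5.53e-07, 4.26e-08 and 3.84e-07). Against control it was higher by 0.24 on the log2 scale at 2 h (adjusted p = 0.0247). At 4 h the difference was 0.09 and not called (adjusted p = 0.393), and at 8 h it was 0.26 and called (adjusted p = 0.0303). The Hspa1a probe set was called at 2 h and 4 h but not at 8 h, and the difference between the 2 probe sets was not tested. That the Hspa1a probe set reads no Hspa1b RNA rests on the annotation alone, and its probe sequences were not checked.

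Hsph1, the HSP110 partner of HSP70, moved in the same direction as Hspa1a at both of its probe sets, but by far less. At probe set 1385620_at the withdrawal cultures had 1494, 1409 and 1376, against 1104, 1175 and 1234 in control cultures. At probe set 1388898_at they had 3885, 3568 and 3573, against 3027, 3222 and 3240. Neither pair of groups overlapped. The rises were 1.22-fold (log2 change 0.29 ± 0.05, adjusted p = 0.000723) and 1.16-fold (log2 change 0.22 ± 0.04, adjusted p = 0.00105).

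Hsph1 was lower again by 2 h of renewed GDNF. The first probe set averaged 1210 ± 18.6 at 2 h, against 1427 ± 61.0 in withdrawal, a log2 change of −0.24 (adjusted p = 0.00268). The second averaged 3265 ± 40.3 at 2 h, against 3675 ± 182 in withdrawal, a log2 change of −0.17 (adjusted p = 0.00516). Both were also lower than withdrawal at 4 h (log2 changes −0.24 and −0.14, adjusted p = 0.00149 and 0.0155) and at 8 h (−0.30 and −0.18, adjusted p = 0.000375 and 0.00329). The smallest of these, the second probe set at 4 h, was no longer called without withdrawal replicate 1, and over all settings its adjusted p reached 0.0742. Against control, the log2 differences of Hsph1 at 2 h, 4 h and 8 h were between −0.02 and 0.08 and none was called.

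Dnajb1, the J-domain protein that feeds clients to HSP70, followed a different course. In withdrawal its 2 probe sets differed from control by log2 0.06 (95% interval −0.06 to 0.17, adjusted p = 0.5) and 0.11 (0.01 to 0.21, adjusted p = 0.107). It rose after GDNF came back. Probe set 1388722_at had 3168, 3011 and 2997 at 2 h, against 2665, 2745 and 2528 in withdrawal, without overlap (log2 change 0.21 ± 0.05, adjusted p = 0.00409). Probe set 1383302_at had 1385, 1351 and 1341 at 2 h, against 1138, 1226 and 1182 in withdrawal, again without overlap (log2 change 0.20 ± 0.05, adjusted p = 0.0117).

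At 4 h the Dnajb1 probe sets parted. Probe set 1388722_at was still higher than withdrawal, with 3194, 2861 and 2976 at 4 h (log2 change 0.19, adjusted p = 0.00679), while 1383302_at was not called (log2 change 0.08, adjusted p = 0.3). Against control, both were higher at 2 h, by 1.20-fold and 1.25-fold (adjusted p = 0.0026 and 0.000164). Only 1388722_at was called against control at 4 h (log2 change 0.30, adjusted p = 0.000339) and at 8 h (0.17, adjusted p = 0.0269). The 8 h call was lost under 7 of the 27 other settings, among them leaving out control replicate 1 or 2 or 8 h replicate 1 or 3, and its adjusted p reached 0.102.

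Hspb1, the small heat shock protein HSP27, which holds unfolded proteins without using ATP, went the opposite way to Hspa1a. The withdrawal cultures had 972, 966 and 906, against 1559, 1409 and 1691 in control cultures. Every withdrawal culture was below every control culture, and the means of 948 ± 36.8 and 1553 ± 141 gave a log2 change of −0.71 ± 0.08, a 1.63-fold fall (adjusted p = 2.37e-05). Renewed GDNF did not bring Hspb1 back within 8 h. Its intensity was 820, 861 and 830 at 2 h, 822, 678 and 889 at 4 h, and 883, 867 and 893 at 8 h, all below the lowest withdrawal culture at 906.

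Against withdrawal, Hspb1 differed at 2 h by log2 −0.18 (adjusted p = 0.123) and at 8 h by −0.11 (adjusted p = 0.383), neither called. The 4 h difference of −0.26 was called (adjusted p = 0.0261) but was lost under 7 of the 27 other settings, among them leaving out withdrawal replicate 1 or 2 or 4 h replicate 2, with adjusted p up to 0.123. Against control, Hspb1 was 1.85-fold lower at 2 h, 1.96-fold lower at 4 h and 1.76-fold lower at 8 h (log2 change −0.81 at 8 h, adjusted p = 1.48e-05).

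**Figure D2:**
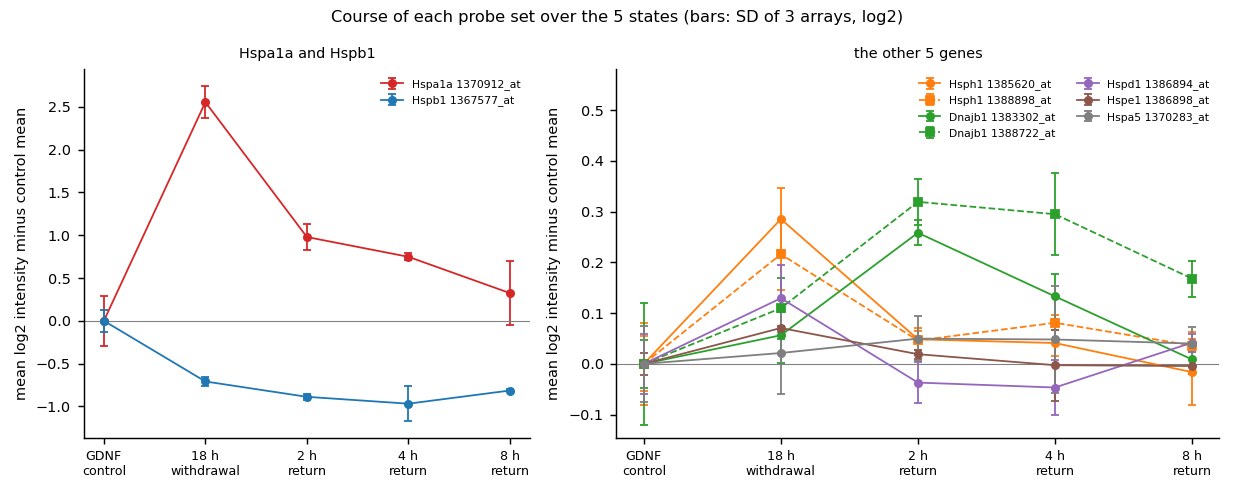
Mean log2 intensity minus the control mean (y axis, log2 units) of each probe set over the 5 states (x axis), with the SD of 3 arrays as bars; the left panel has Hspa1a and Hspb1 and the right panel, on a finer scale, the other 5 genes. Hspa1a peaks at 2.56 in withdrawal and comes down, Hspb1 stays at or below −0.71 after control, the Hsph1 probe sets peak in withdrawal, and the Dnajb1 probe sets peak at 2 h.

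The mitochondrial pair differed little. Hspd1 (HSP60) had 8538, 8748 and 9330 in withdrawal cultures, against 7738, 8257 and 8342 in control cultures, a 1.09-fold rise (log2 change 0.13 ± 0.04, adjusted p = 0.0362). That call was lost under 9 of the 27 other settings, with adjusted p up to 0.145, among them median centring and leaving out control replicate 1 or 2 or withdrawal replicate 2 or 3. With GDNF back, Hspd1 was lower than in withdrawal at 2 h (log2 change −0.17, adjusted p = 0.00832) and at 4 h (−0.18, adjusted p = 0.00462), and not called at 8 h (−0.09, adjusted p = 0.137). Against control, no Hspd1 difference was called at any of the 3 return times, and the log2 differences lay between −0.05 and 0.04.

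Hspe1 (HSP10), the lid of the same chamber, had 22519, 22375 and 22406 in withdrawal cultures, against 21129, 21245 and 21718 in control cultures. The groups did not overlap, yet the log2 change was 0.07 with a 95% interval from 0.01 to 0.14 and was not called (adjusted p = 0.12). No Hspe1 difference passed the test in any of the 7 comparisons as fitted here. Of the 27 other settings, 1 called it higher in withdrawal than in control (adjusted p = 0.046). Against withdrawal, 2 of the 27 called it lower at 4 h (lowest adjusted p = 0.0203) and 2 at 8 h (lowest adjusted p = 0.0317).

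Hspa5, the endoplasmic reticulum HSP70, was level across all states. Its means were 12314 ± 651 in control, 12503 ± 696 in withdrawal, 12737 ± 391 at 2 h, 12746 ± 957 at 4 h and 12654 ± 294 at 8 h. The log2 difference of withdrawal from control was 0.02, with a 95% interval from −0.09 to 0.14, and all 5 groups overlapped. The F test over the 5 states gave an adjusted p of 0.885 for Hspa5 and 0.185 for Hspe1, and it called the other 7 member probe sets, in a test that called 49.6% of all probe sets.

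The constitutive HSP70 gene Hspa8 (HSC70) and the cytosolic HSP90 gene Hsp90aa1 (HSP90 alpha) were seen only through shared probe sets. Probe set 1398240_at, assigned to Hspa8 and Haus8l2, had 29178, 28958 and 30298 in withdrawal cultures and 28681, 27956 and 28093 in control cultures (log2 change 0.06, adjusted p = 0.112), and was lower than withdrawal at 2 h (log2 change −0.10, adjusted p = 0.0134). Probe sets 1372701_at and 1388850_at, both assigned to Hsp90aa1 and a pseudogene of it, had log2 changes of 0.05 (adjusted p = 0.267) and 0.12 (adjusted p = 0.0384) in withdrawal against control. These shared probe sets showed small changes whichever gene they read.

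Counted together, 4 of the 9 member probe sets rose and 1 fell in withdrawal against control. Among all tested probe sets 21.1% were called, 11.4% higher and 9.67% lower. The risers were Hspa1a, both Hsph1 probe sets and Hspd1, and Hspb1 was the one that fell. The median log2 change of the members was 0.11, against 0.01 for all tested probe sets.

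The 3 comparisons of renewed GDNF with withdrawal share the withdrawal arrays with each other and with the first comparison, so a high withdrawal value enters all of them. At 2 h, 2 member probe sets were higher (both of Dnajb1) and 4 lower (Hspa1a, both of Hsph1, and Hspd1), beside 26.1% of all probe sets called, 11.9% higher and 14.2% lower. At 4 h, 1 was higher (Dnajb1 at 1388722_at) and 5 lower (the same 4 and Hspb1), beside 30.6% called in all, 14.6% higher and 16% lower. At 8 h, none was higher and 3 were lower (Hspa1a and both of Hsph1), beside 25.0% called in all, 9.62% higher and 15.4% lower. The members' median log2 changes were −0.17, −0.14 and −0.09 at 2 h, 4 h and 8 h, against −0.02, −0.01 and −0.02 for all tested probe sets.

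**Figure D3:**
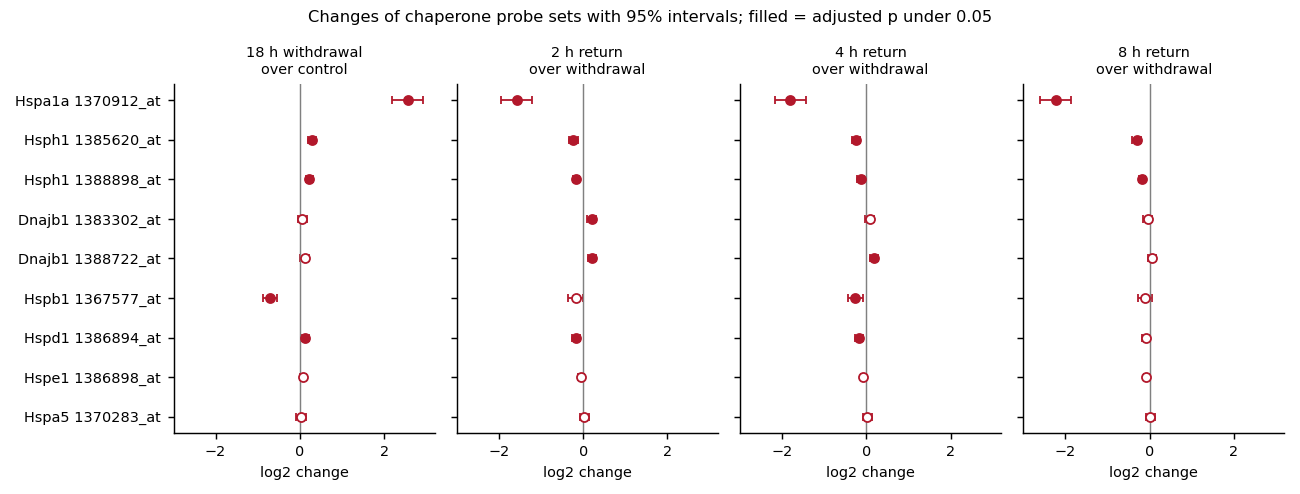
Log2 change of each chaperone probe set (rows) with its 95% interval, in withdrawal against control and at 2 h, 4 h and 8 h of renewed GDNF against withdrawal; filled points have an adjusted p under 0.05. Hspa1a lies at 2.56 in the first panel and between −1.58 and −2.23 in the others, Hspb1 lies at −0.71 in the first panel, and the remaining points lie between −0.30 (Hsph1 at 8 h) and 0.29 (Hsph1 in withdrawal).

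Set against control rather than withdrawal, 3 member probe sets were higher and 1 lower at 2 h, where 22.6% of all probe sets were called. The higher ones were Hspa1a and both of Dnajb1, and the lower one was Hspb1. At 4 h, 2 were higher (Hspa1a and 1 of Dnajb1) and 1 lower (Hspb1), where 21.6% were called. At 8 h, 1 was higher (Dnajb1 at 1388722_at) and 1 lower (Hspb1), where 12.3% were called, 4.83% higher and 7.49% lower.

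The next 5 lists of related genes, with the members left out, place these values among the wider folding machinery. The cytosolic list held 44 chaperones and co-chaperones linked to HSF1, of which 38 had a tested probe set. In withdrawal against control 6 of the 38 rose and none fell (15.8% higher, beside 11.4% of all probe sets; median log2 change 0.05, against 0.01 for all probe sets). Stip1, which holds HSP70 and HSP90 together, rose 1.22-fold to 5641 ± 106, against 4637 ± 253 in control (adjusted p = 0.000166). St13, a co-chaperone of HSP70, rose 1.14-fold (adjusted p = 0.00258). Ahsa1, the activator of the HSP90 ATPase, and Ppid, a prolyl isomerase that binds HSP90, rose 1.12-fold and 1.09-fold (adjusted p = 0.0138 and 0.0116).

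With GDNF back, more of the cytosolic list was called lower than higher. At 2 h 1 was higher and 7 lower, at 4 h 2 and 12, and at 8 h 1 and 10, of 38 each. The shares called lower were 18.4%, 31.6% and 26.3%, beside the 14.2%, 16% and 15.4% of all probe sets given above. Ppid had the log2 changes −0.16, −0.27 and −0.24 at 2 h, 4 h and 8 h, all called. Fkbp4, another isomerase of the HSP90 complex, was 1.13-fold higher in withdrawal than in control (adjusted p = 0.047) and lower than withdrawal by log2 −0.23, −0.32 and −0.29 at the 3 times, all called. Hspa14, a ribosome-associated HSP70, was lower at 4 h by −0.28 (adjusted p = 0.000255).

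Bag3, an HSP70 co-chaperone that steers clients to autophagy, went against that majority. It averaged 310.9 at 4 h, against 171.4 in withdrawal, a log2 change of 0.86 (adjusted p = 2.43e-06). Its log2 changes at 2 h and 8 h against withdrawal were 0.24 (adjusted p = 0.051) and 0.32 (adjusted p = 0.0123), and in withdrawal against control −0.10 (adjusted p = 0.468). Over these 5 states Bag3 was highest at 4 h and Hspa1a in withdrawal. Both are known targets of HSF1, and whether HSF1 had a part in either course was not tested.

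The CCT chaperonin, which folds actin and tubulin, and its partner prefoldin gave 13 tested genes. In withdrawal 1 rose, the subunit gene Cct7, by 1.07-fold (adjusted p = 0.0324), and none fell. That is 7.69% higher, beside 11.4% of all probe sets. At 2 h, 4 h and 8 h of renewed GDNF none was higher and 2, 3 and 3 were lower, or 15.4%, 23.1% and 23.1%, beside 14.2%, 16% and 15.4% of all probe sets. Cct7 was among those lower at each of these times, by log2 −0.10, −0.11 and −0.09. At 4 h the others were the subunit gene Cct4 (log2 change −0.11, adjusted p = 0.0388) and the prefoldin gene Pfdn1 (−0.15, adjusted p = 0.0224).

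The list for the endoplasmic reticulum and the unfolded protein response gave 32 tested genes, and they did not move together. In withdrawal 2 rose and 7 fell, or 6.25% and 21.9%, beside 11.4% and 9.67% of all probe sets. Sdf2l1, part of an endoplasmic reticulum chaperone complex, rose 1.48-fold to 491.1 ± 29.6, against 332.5 ± 26.3 in control (adjusted p = 2.61e-05). Edem1, which sends misfolded glycoproteins for degradation, fell 1.52-fold to 767.2 ± 69.2, against 1162 ± 15.35 in control (adjusted p = 1.45e-06). The stress sensor kinase Eif2ak3 (PERK) and the degradation channel gene Derl1 fell by 0.40 and 0.24 on the log2 scale (adjusted p = 0.00022 and 0.00137). Ppp1r15a (GADD34), a phosphatase subunit induced by the PERK branch, fell by 0.38 (adjusted p = 0.00246).

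With GDNF back, 5 of these 32 were higher and 5 lower at 2 h, 3 and 5 at 4 h, and 2 and 6 at 8 h. The shares lower were 15.6%, 15.6% and 18.8%, beside 14.2%, 16% and 15.4% of all probe sets, and the shares higher 15.6%, 9.38% and 6.25%, beside 11.9%, 14.6% and 9.62%, so both lay near those of the whole array. Ppp1r15a was higher than withdrawal at 2 h by log2 0.67 (adjusted p = 2.42e-05), and Derl1 by 0.36 and 0.38 at 2 h and 4 h. Edem1 was higher at all 3 times by 0.30 to 0.33, yet at 8 h was still lower than control by log2 −0.29 (adjusted p = 0.00239). Sdf2l1 was not lower at 2 h (log2 change −0.02, adjusted p = 0.825) but was at 4 h and 8 h, by −0.465 and −0.61.

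Of 16 tested genes of mitochondrial folding and proteolysis, 2 rose and 1 fell in withdrawal, or 12.5% and 6.25%, near the 11.4% and 9.67% of all probe sets. Trap1, the mitochondrial HSP90, and Dnaja3, a mitochondrial J-domain protein, rose 1.22-fold and 1.17-fold (adjusted p = 0.000436 and 0.0148), and Hscb, a J-domain protein of iron-sulphur cluster assembly, fell 1.25-fold (adjusted p = 0.000177). At 2 h none was higher and 4 lower, at 4 h 2 and 3, and at 8 h 1 and 3. The shares lower were 25.0%, 18.8% and 18.8%, beside 14.2%, 16% and 15.4% of all probe sets. Trap1 and Dnaja3 were lower than withdrawal at 4 h by log2 −0.32 and −0.38, Hscb was higher by 0.21, and the protease gene Htra2 was lower by −0.36 (adjusted p = 0.015).

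The list for oxidative and metal stress went the other way from Hspa1a. Of its 12 tested genes 1 rose and 7 fell in withdrawal (median log2 change −0.22, against 0.01 for all probe sets). Hmox1, which breaks down haem, fell by 0.54 on the log2 scale to 361.2 ± 12.05, against 525.4 ± 8.115 in control (adjusted p = 3.32e-06). Srxn1, which repairs oxidised peroxiredoxins, fell 1.41-fold (adjusted p = 0.000279), the quinone reductase Nqo1 fell 1.31-fold (adjusted p = 0.00118), the thioredoxin reductase Txnrd1 1.20-fold (adjusted p = 0.00238), and Gclc, of glutathione synthesis, 1.13-fold (adjusted p = 0.0241). The share that fell was 58.3%, beside 9.67% of all probe sets. With GDNF back, 6, 7 and 5 of the 12 were higher at 2 h, 4 h and 8 h (50%, 58.3% and 41.7%, beside 11.9%, 14.6% and 9.62%), and none was lower.

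Of these 5, Hmox1, Srxn1, Txnrd1 and Gclc had their highest mean at 4 h, and Nqo1 at 8 h. Hmox1 averaged 931.2 at 4 h, against 361.2 in withdrawal (log2 change 1.37, adjusted p = 9.44e-11), and Srxn1 averaged 680.6, against 244.0 (log2 change 1.48, adjusted p = 1.86e-09). At 8 h Hmox1 and Srxn1 were higher than withdrawal by 0.76 and 0.40. Txnrd1 and Gclc were higher at 4 h by 0.64 and 0.60 (adjusted p = 3.9e-07 and 8.21e-07), and Nqo1 was higher by 0.46 (adjusted p = 0.00018).

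**Figure D4:**
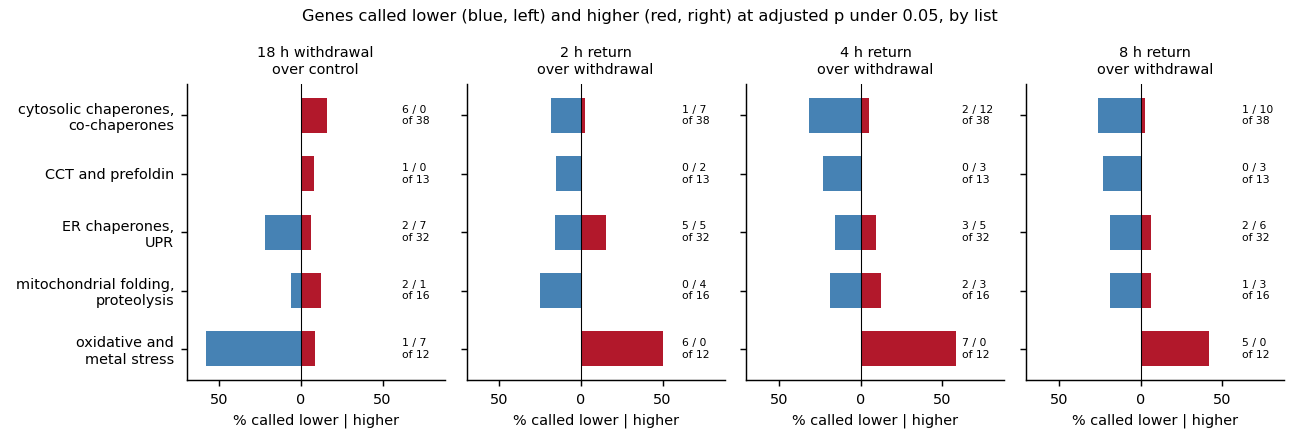
Share of the tested genes of each list called lower (left of 0) and higher (right of 0), in percent, in withdrawal against control and at 2 h, 4 h and 8 h of renewed GDNF against withdrawal; the figures beside the bars are the counts higher and lower. The cytosolic list has 6 higher and 0 lower of 38 in withdrawal and 2 and 12 at 4 h, while the oxidative list has 1 and 7 of 12 in withdrawal and 7 and 0 at 4 h.

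Across the 15 arrays, the member probe sets most like Hspa1a were those of Hsph1, with Pearson correlations of log2 intensity of 0.92 and 0.87. They were 0.72 for Hspe1, 0.51 for Hspd1, 0.19 and 0.12 for the Dnajb1 probe sets, −0.11 for Hspa5 and −0.32 for Hspb1. The 2 probe sets of Hsph1 had 0.92 with each other and those of Dnajb1 0.77. These are descriptions of 15 arrays in 5 states, in which the state means carry much of the likeness.

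Outside the members, the genes whose log2 intensity was most like Hspa1a over the 15 arrays were Ints4 (Pearson correlation 0.94), Prickle3 (0.93), Pradc1 (0.93), Nub1 (0.93) and Yeats2 (0.93). Ints4 averaged 1589 ± 56.5 in withdrawal, against 1242 ± 20.6 in control. The most opposite were Atp1b1 (−0.94), Mkrn1 (−0.94), Spry4 (−0.93), Rnf151 (−0.93) and Bcl6b (−0.915). Spry4, a feedback inhibitor of receptor tyrosine kinase signalling, averaged 150 ± 8.16 in withdrawal, against 443 ± 11.0 in control. Bcl6b, a transcription factor known to depend on GDNF in these stem cells, averaged 107 ± 2.15 in withdrawal, against 932 ± 16.4 in control at that probe set.

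The cultures expressed markers of undifferentiated spermatogonia, with 9 of 17 listed genes tested, among them Ret, Etv5, Id4, Sall4, Uchl1 and Epcam, while Gfra1, Lin28a and Nanos3 did not pass the filter. In withdrawal against control 3 of the 9 were called higher and 5 lower (33.3% and 55.6%), with a mean log2 intensity of 10.17 ± 0.10 in withdrawal and 10.63 ± 0.08 in control. At 4 h against withdrawal 5 were higher and 2 lower (55.6% and 22.2%). The 9 include Bcl6b, described above as dependent on GDNF, so their mean does not measure the number of these cells. Among all tested probe sets, 11.4% were called higher and 9.67% lower in withdrawal, and 14.6% and 16% at 4 h. These shares also stand beside the marker counts that follow for the same comparisons. Of 10 markers of differentiating and late germ cells, 3 were tested: Sycp3 at 11840 to 15720, Sycp1 at 209 to 353 and Kit at 91.0 to 193, with 1 called higher and none lower in withdrawal and 2 higher and 1 lower at 4 h. None of the 6 immune or blood markers with a probe set reached an intensity of 16 on any array, nor did Star, Insl3 or Cyp17a1 of Leydig cells or Prm1, Prm2 or Acrv1 of late germ cells. Acta2, of peritubular cells, was tested, at 69.8 to 113.5, and not called in withdrawal. Amh, Gata4 and Inha of Sertoli cells were also under 16 on every array, while Clu, Cldn11 and Wt1 were tested, with 1 called higher in withdrawal and none lower. Mesenchymal markers, which mark fibroblasts or feeder cells, were present for 13 of 18 genes. Their summed intensity ran from 4069 to 6732 in withdrawal cultures and from 5587 to 7320 in control cultures, with 0 of 13 called higher and 2 lower (15.4% lower). At 2 h the sum ran from 3779 to 4255, with 1 called higher and 5 lower against withdrawal. These were 7.69% and 38.5%, beside 11.9% and 14.2% of all probe sets. The sum ran from 4141 to 5525 at 4 h and from 5996 to 7220 at 8 h. With the mean of these markers as a covariate, the Hspa1a rise in withdrawal was log2 2.51 and the Hspb1 fall −0.72, while the 2 h calls of Dnajb1 at 1383302_at and of Hspd1 were lost (adjusted p = 0.0635 and 0.0621).

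Some measures of RNA moved with the states. The 5S ribosomal RNA control on the array averaged 1263 ± 58.4 in control, 2044 ± 45.8 in withdrawal, 1682 ± 28.4 at 2 h, 1444 ± 165 at 4 h and 1258 ± 29.9 at 8 h (SD, n = 3 each), so withdrawal was highest and 2 h next, as for Hspa1a. The log2 difference between the 3′ and 5′ beta-actin control probe sets, a measure of RNA integrity, was 2.20 ± 0.04 in withdrawal and 1.99 ± 0.09 in control. The same difference was 2.43 ± 0.03 in withdrawal and 2.50 ± 0.05 in control for hexokinase, and −0.12 ± 0.03 in withdrawal and −0.20 ± 0.01 in control for GAPDH. The part of these in the chaperone results was not tested. Replicate 1 of withdrawal, 4 h and control stood highest on the main axis of variation within groups, which held 25.2% of that variation. Their scores were 13.95, 11.28 and 9.26. Control replicate 2 and withdrawal replicate 3 lay about as far out at the other end, at −12.46 and −11.62, and were left out only singly. Without these 3 arrays the withdrawal change was log2 2.51 for Hspa1a and −0.72 for Hspb1, both called, and 0.21 and 0.14 for the Hsph1 probe sets, both called.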

How the data were processed

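RNA from 15 rat cultures was measured on 1-colour Affymetrix arrays of 31099 probe sets, 57 of them controls left out of the tests. The authors deposited 1 intensity per probe set and array, on a linear scale as read from the values, which run from 1.85 to 53476; GCRMA and Partek 6.3 were used per the submitters' processing notes, with no role given. As a method, GCRMA removes background estimated from each probe's sequence and normalizes across arrays, which bears most on dim probe sets. The share of probe sets at 16 or more was 50.1% to 50.4% on every array; precision rests on 3 arrays a group.

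Intensities were converted to log2, probe sets with at least 16 (log2 of 4) on at least 3 arrays were kept, and limma 3.58.1 in R 4.3.3 (lmFit, eBayes with an intensity trend) was fitted to all 15 arrays with 1 mean per group. The 7 comparisons and the F test were adjusted by Benjamini-Hochberg over 15856 probe sets each. The same fit was also run on simulated data, whose spread was taken from the fit to these arrays. Groups and replicates are those of the labels, which call the cultures independent. Symbols are those of the platform annotation, updated through gene identifiers: 20832 probe sets had 1 symbol, 436 had several and 9831 had none. In the lists a gene is its probe set of highest mean, and the genes named are up to 4 called genes of smallest adjusted p in withdrawal against control and at 4 h against withdrawal. The genes most like Hspa1a are the 5 highest and 5 lowest correlations. Tried as alternatives were other normalizations, filters, a pseudocount, a floor, array weights, a replicate block, only the arrays compared, and each array left out; 2 more were chosen after seeing the data (3 arrays left out together, and the mesenchymal marker mean as a covariate). Members and lists were chosen with earlier results of these data known.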

Additional observations from a re-analysis of the deposited data

How the results depend on the processing

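Of 63 member results (9 probe sets in 7 comparisons) under 27 other settings each, 1630 stayed on the same side of the threshold with the same direction, 29 were no longer called and 8 became called. The other 34 changed sign while not called in either fit; they belong to 14 results, none of them called as reported. No Hspa1a result changed, and its log2 change in withdrawal lay between 2.17 and 2.66. Outside the results named above as lost, the 4 h change of Dnajb1 at 1388722_at against withdrawal was lost without the 3 arrays left out together (adjusted p = 0.0573). The member probe sets called at 8 h against control were 2, and 1 without the filter on low values, without the intensity trend and without those 3 arrays, and 1 to 2 with each array left out. Fitting only the arrays compared gave 2166 probe sets called in withdrawal against control, in place of 3342. It gave 2025 at 4 h against control, in place of 3430, and 1241 at 8 h against control, in place of 1953. In that fit fewer arrays estimate the spread, and the cause of the lower counts was not tested. With the mesenchymal marker mean as a covariate, 2326 were called at 2 h against control, in place of 3591, and the cause was not tested.

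Whether the replicate numbers pair the cultures was not settled. Of 30 same-numbered pairs, 8 had a correlation of deviations over 0.1 (−0.14 to 0.39, median 0.04, against −0.01 for the other pairs). Only 7 of 15 arrays correlated best with their own number. Replicate 1 lay on the positive side of the main axis of variation within groups in all 5 groups. With the replicate number as a block, 3520 probe sets were called in withdrawal against control, in place of 3342, and 5 of them were members. The block raised the number of probe sets called in all 7 comparisons, while the number of members called stayed the same in each. Signal over background limits the dim probe sets; Hspa1a in control, at 32.9 to 47.9, is near the filter of 16, where GCRMA's background step has most weight.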
